A study of Mus musculus with 24 samples.

Results

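The resting mouse kidney was described here from the libraries of animals that had received vehicle alone, 8 of the 24 libraries in the series. The members were chosen by their labelled treatment, and their values are those of whole kidneys of C57BL6 mice, labelled male, after a single intraperitoneal injection of vehicle. The other groups held 8 libraries each, from mice of the same strain and labelled sex injected once with hPTH(1-34) (PTH, an active piece of parathyroid hormone) or with YKL-05-099, which inhibits salt-inducible kinases, and were used only to set the vehicle spread beside that of treated kidneys. The submitters describe n = 6 for each treatment although every group has 8 libraries, and separate animals are not stated, so the spread between libraries may be partly technical. Levels are in FPKM (fragments mapped to a gene, scaled to its transcript length and to the library's total), which allows genes to be ordered within a library. In whole tissue, fewer cells of a type and less RNA per cell cannot be told apart.

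The kidney filters blood in glomeruli, whose podocytes form the filter, and then recovers most of the filtrate along the nephron. The proximal tubule takes back phosphate, glucose and amino acids and activates vitamin D, the thick ascending limb and distal convoluted tubule take back salt, and the principal and intercalated cells of the collecting duct set water, potassium and acid. PTH and FGF23 with its co-receptor Klotho act on the tubule to lower phosphate uptake and to change the balance between Cyp27b1, which makes active vitamin D, and Cyp24a1, which degrades it.

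The vehicle libraries were alike in depth. From the steps between low values, depth was estimated at 6750000 to 7310000 fragments a library (median 7130000). The estimate rests on 274 to 309 low values per library, of which 74.4% to 81.4% fell within 0.2 of a whole fragment. Depth was chosen to bring these same values closest to whole fragments, so that share is not an independent check of it. Of the 19426 genes listed, 16542 to 16835 were above 0 in a library, and the 10 most abundant held 12.0% to 13.7% of the summed FPKM. Pairwise correlations of log2 values ran from 0.970 to 0.987. A mean of at least 1 FPKM was reached by 12872 genes. Against the label, Xist, the long RNA of the inactive X, stood at 88.9 to 109.9 FPKM in 8 of 8 libraries, while Ddx3y and Uty, both on the Y chromosome, did not exceed 0.10 and 0.03 FPKM. Among genes known for sex-biased kidney expression, Slc7a13, a carrier that is high in male mice, reached at most 1.96 FPKM. Slco1a1, an organic anion carrier of the male proximal tubule in mice, reached at most 0.04 FPKM. Slc7a12 and Prlr, which are higher in female mouse kidney, had medians of 86.8 and 82.4 FPKM. By contrast, the androgen-induced gene Kap was the second most abundant gene. Of the 8 genes on the male-biased list, 7 had a mean of at least 1 FPKM, and the median of the 8 means was 53.8 FPKM. The 4 genes on the female-biased list all had such a mean, with a median of 86.6 FPKM. The sex-chromosome genes thus went against the male label in 8 of 8 libraries, and the sex of the animals is given here only as labelled.

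Gpx3, a selenium-dependent peroxidase that the proximal tubule secretes into plasma, led the kidney transcriptome at 20896 ± 1064 FPKM (mean ± SD, n = 8), and its lowest and highest libraries were 19485 and 22538. Kap, a small androgen-induced protein of the proximal tubule, followed at 15577 ± 3289 FPKM. Vehicle 7 stood apart for Kap at 8683, against 13819 to 18585 in the other 7 libraries, and without it the SD on the log2 scale fell from 0.36 to 0.17. Gpx3 alone made up 3.87% to 4.40% of a library's summed FPKM. Also near the top were the ferritin heavy chain Fth1 (4616 ± 273 FPKM), the kallikrein Klk1 (3897 ± 318 FPKM) and the glycolytic enzyme Gapdh (3701 ± 292 FPKM). Gpx3 was above Kap, and Fth1 above Klk1, in 8 of 8 libraries, but Klk1 was above Gapdh in only 5 of 8, so the order of that pair was within their spread. Fxyd2, the gamma subunit of the sodium pump, stood at 3285 ± 314 FPKM. Also among the 20 most abundant genes were Pck1, the rate-limiting enzyme of gluconeogenesis, the fatty acid carrier and acyl-CoA synthetase Slc27a2, the arginine-producing enzyme Ass1 and S100g, the calcium-binding protein calbindin-D9k. Pck1 ranged from 1184 FPKM in vehicle 7 to 2403 in vehicle 2, its SD being 0.31 with all libraries and 0.20 without vehicle 7, while Slc27a2 stayed between 1700.3 and 2050.1.

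The median SD on the log2 scale was 0.17 for the podocyte markers and 0.15 and 0.17 for those of the early and late proximal tubule. It was 0.16 for all genes at 1 FPKM or more, but lower for abundant genes. Genes at 10 to 50 FPKM had a median SD of 0.13, and those at 50 to 200 FPKM one of 0.11. The median of the marker means was 11.5 FPKM for the podocyte, 173 for the early and 67.6 for the late proximal tubule. The podocyte gene Podxl, a sialomucin of the foot processes, had a median of 58.9 FPKM (52.0 to 64.8), and the 6 podocyte markers summed to 114 to 137 FPKM. Slc34a1 (chr13:55399622-55414695, GRCm38), the proximal sodium-phosphate cotransporter through which PTH lowers phosphate reabsorption, was 1297, 1242, 1082, 1000.4, 1284, 1118, 1160.4 and 1227 FPKM in vehicle 1 to 8. No library stood apart, and the SD on the log2 scale was 0.13. The endocytic receptor Lrp2 (141 to 189 FPKM) and the glucose carrier Slc5a2 (158 to 216 FPKM) also kept within narrow bounds. Markers of the last proximal segment differed widely in level. The amino acid carrier gene Slc6a18 had a median of 224 FPKM and the aminoacylase Acy3 one of 334 FPKM, but Slc7a13, a cystine and aspartate carrier of the same segment that is high in male mice, reached at most 1.96 FPKM.

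Along the distal nephron the median SD was 0.19 for the thick ascending limb markers, 0.13 for the distal convoluted tubule, 0.21 for the connecting tubule and 0.17 for intercalated cells. Umod (chr7:119462708-119479262), uromodulin of the thick ascending limb, was 724 FPKM in vehicle 2 and 744 in vehicle 7, against 1078 to 1221 in the other 6 libraries. Slc12a1, the furosemide-sensitive cotransporter of the same cells, was also lowest in vehicle 7 (359.7 FPKM) and next lowest in vehicle 2 (407), with a highest value of 573. Slc12a3 (chr8:94329109-94366222), the thiazide-sensitive cotransporter of the distal convoluted tubule, was 188 to 238 FPKM with a median of 218. The calcium-binding proteins of the connecting tubule were far more abundant than its calcium channel: S100g had a median of 1512 FPKM (1129 to 1802) and Calb1 one of 265 (218 to 328), against 6.32 (4.51 to 7.46) for Trpv5. Among intercalated cell genes, the proton pump subunit Atp6v1b1 was 61.7 to 68.6 FPKM and the chloride-bicarbonate exchanger Slc26a4, pendrin, 26 to 31.5. The vesicular water channel Aqp6 was 57.0 FPKM in vehicle 7 and 31.4 to 44.5 in the other 7, and 6 of the 7 intercalated markers had their highest value in vehicle 7, as did 20.8% of the 12769 genes at 1 FPKM or more that are not small RNAs.

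Principal cell genes did not move as a block. Aqp2 (chr15:99579056-99584545), the vasopressin-regulated water channel of the collecting duct, was 67.3, 73.0, 53.0, 60, 52.5 and 45.4 FPKM in vehicle 1 to 6, and 120.0 and 119 in vehicle 7 and 8. The basolateral water channel Aqp4 followed the same split, with 14.9 to 20.8 FPKM in 6 libraries and 42.6 and 40.9 in vehicle 7 and 8. Without those libraries the SD of Aqp2 on the log2 scale fell from 0.53 to 0.25, and that of Aqp4 from 0.56 to 0.19. By contrast, the cortisol-inactivating enzyme Hsd11b2, which keeps the mineralocorticoid receptor free for aldosterone, varied little (53.7 to 61.0 FPKM), as did the sodium channel subunit Scnn1b (26.8 to 34.5 FPKM). Vehicle 7 and 8 were the highest pair for 3 of the 8 principal cell markers, Aqp2, Aqp3 and Aqp4, and for 3 of the 4 thin limb markers, among them the urea transporter Slc14a2 (42.2 and 52.4 FPKM against 26.4 to 33.4), beside 12.4% of those 12769 genes.

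**Figure D1:**
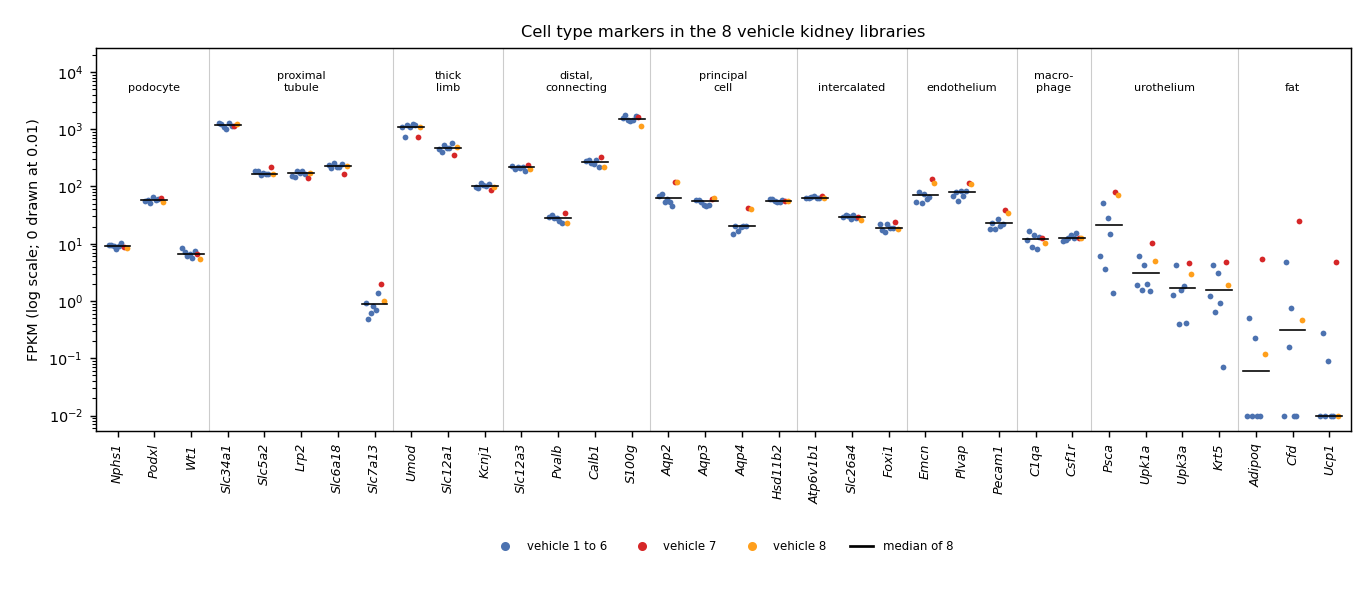
FPKM on a log axis for cell type markers in the 8 vehicle libraries, 1 point per library, with the median as a black bar and values of 0 drawn at 0.01. The intercalated markers, and the proximal markers other than Slc7a13, lie close together. Vehicle 7 (red) and vehicle 8 (orange) sit above the rest for Aqp2, Aqp4, Emcn, Plvap and Pecam1. The urothelial and fat markers other than Upk1a spread over more than a decade.

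Endothelial genes showed the same libraries on top. Emcn, a sialoglycoprotein of capillary and venous endothelium, was 51.7 to 79.4 FPKM in vehicle 1 to 6, and 133 and 113 in vehicle 7 and 8. Plvap, which forms the diaphragms of fenestrated capillaries, was 116 and 111 FPKM in those libraries against 56.5 to 83.9. Of the 8 endothelial markers, 7 had vehicle 7 and 8 as their highest pair, beside 12.4% of the 12769 genes. The exception was Ehd3, a marker of glomerular endothelium. Macrophage genes were present at a lower level without that split: the complement gene C1qa ranged from 7.94 to 16.4 FPKM with its highest value in vehicle 2, and the receptor Csf1r from 11.1 to 15.2 FPKM. T cell markers summed to at most 6.40 FPKM and B cell markers to at most 3.29. The hemoglobin genes Hba-a1 and Hbb-bs had medians of 173 and 199.8 FPKM, and neither was near 0 in any library. Of the fibroblast and pericyte genes, the receptor Pdgfra was 12.5 and 9.69 FPKM in vehicle 7 and 8 against 4.70 to 8.49, and the collagen Col1a1 was 2.69 to 5.26. Of these 6 genes 5 had their lowest value in vehicle 3, as did 15.1% of the 12769. Among genes of other tissues, the 3 measured skeletal muscle genes summed to at most 0.22 FPKM and the 4 measured adrenal genes to 1.97 to 2.66. The muscle myosin Myh1, on no list and singled out after its values were seen, was 0.62 FPKM in vehicle 7 and 1.63 to 2.5 elsewhere. The 5 measured pancreas and liver genes summed to 54.9 to 71.1 FPKM, most of it from the elastase gene Cela1 (38.3 to 48.3), while the protease gene Ctrb1 was listed at 0 in 8 of 8 libraries.

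Urothelial and fat genes differed most. The 7 urothelial markers summed to 13.2, 74.5, 8.39, 44.8, 22.2, 4.23, 115 and 90.1 FPKM in vehicle 1 to 8. Psca, a surface protein of urothelium, ranged from 1.40 FPKM in vehicle 6 to 79.2 in vehicle 7, a 56.6-fold range, and the uroplakin Upk1a from 1.5 to 10.2. The fat cell genes Adipoq (adiponectin) and Cfd (adipsin) were 5.39 and 25 FPKM in vehicle 7, and at most 0.50 and 4.85 elsewhere, with vehicle 2 next. Ucp1, the uncoupling protein of brown fat, was 4.86 FPKM in vehicle 7 and at most 0.28 in the other 7. Fabp4, a fatty acid binding protein of both fat cells and capillary endothelium, was 399 FPKM in vehicle 7 against 119.8 to 207, and its SD on the log2 scale fell from 0.56 to 0.25 without that library.

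Receptors for hormones of mineral balance differed widely in level. Pth1r (chr9:110722085-110747145), the receptor for PTH, was 131 to 162 FPKM with a median of 144, and its SD on the log2 scale was 0.11. Kl, which encodes Klotho, had a median of 104 FPKM (89.1 to 119), and Vdr, the receptor for active vitamin D, one of 94.4 (81.7 to 114). The FGF receptors were lower, Fgfr3 with a mean of 16.6 FPKM and Fgfr1 with 10.8, and the calcium-sensing receptor Casr ranged from 5.74 to 9.05. Calcr, the calcitonin receptor, reached at most 0.28 FPKM. Of the 9 receptors on this list, 8 had a mean of at least 1 FPKM. Their median SD on the log2 scale was 0.14, beside 0.16 for all genes at 1 FPKM or more. The median of the 9 means was 10.8 FPKM, and genes at 10 to 50 FPKM had a median SD of 0.13.

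Among the receptors for water, salt and pressure, the prostaglandin receptor Ptger3, the angiotensin receptor Agtr1a and the vasopressin receptor Avpr2 had medians of 22.7, 19.5 and 10.2 FPKM. Agtr1a was the steadiest of the 3 (17.3 to 20.5), and Avpr2 ranged from 7.53 to 13.0. The mineralocorticoid receptor Nr3c2 was 1.76 to 3.27 FPKM. Among receptors for metabolic and growth hormones, Ghr, the growth hormone receptor, led at 191 to 308 FPKM, and the insulin receptor Insr was 16.2 to 18.5. The leptin receptor Lepr and the erythropoietin receptor Epor belonged to the variable minority. Lepr was 9.29 and 8.28 FPKM in vehicle 7 and 8 against 3.36 to 6.56, and Epor was 6.73 and 3.5 against 0.79 to 2.04. The glucocorticoid receptor Nr3c1 stood at 14.4 to 20.8 FPKM, above the estrogen receptor Esr1 (0.52 to 0.95) in every library.

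The vitamin D enzymes were unequal at rest. Cyp27b1 (chr10:127048246-127054884), the 1-alpha-hydroxylase, was 7.05, 6.81, 4.34, 3.31, 3.81, 2.69, 4 and 5.21 FPKM in vehicle 1 to 8. Cyp24a1 (chr2:170482957-170497145), the 24-hydroxylase, was 23.6, 20.3, 77.4, 24.4, 34.9, 61.5, 172 and 42.8 FPKM. Cyp24a1 was thus above Cyp27b1 in 8 of 8 libraries, and vehicle 7 had by far its highest value. The SD of Cyp24a1 on the log2 scale was 1.04 with all libraries and 0.73 without vehicle 7, and that of Cyp27b1 was 0.48. Renin, from Ren1, varied from 21.8 to 54.8 FPKM, and Egf, the growth factor precursor of the thick ascending limb and distal tubule, from 357 to 586. Epo was listed at 0 in 6 of 8 libraries and reached at most 0.22 FPKM.

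Many transporter genes kept within narrow bounds. The sodium pump subunit Atp1b1 had an SD of 0.05 on the log2 scale, at 1276 to 1405 FPKM, and the epithelial sodium channel subunit Scnn1a was 50.2 to 58.8 FPKM. Of the other phosphate carriers, Slc34a3 had a median of 18.3 FPKM and the widely expressed carrier Slc20a1 one of 15.7, far below Slc34a1. The cystine carrier subunit Slc3a1 was 225 to 303 FPKM, the organic anion carrier Slc22a6 95.7 to 130.2 and the water channel Aqp1 of the proximal tubule 153 to 204. The exceptions were few. Slc13a1, the proximal sodium-sulfate cotransporter, was 321 FPKM in vehicle 7 and 141 to 195 in the other 7, and its SD fell from 0.37 to 0.15 without that library. The urea channel Slc14a1 ranged from 1.90 to 6.93 FPKM, and was highest in vehicle 8 and vehicle 2. The median SD within the 7 transporter lists ran from 0.11 for organic ions to 0.28 for water and urea. It was 0.16 for all genes at 1 FPKM or more, 0.13 for those at 10 to 50 FPKM and 0.11 for those at 50 to 200.

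**Figure D2:**
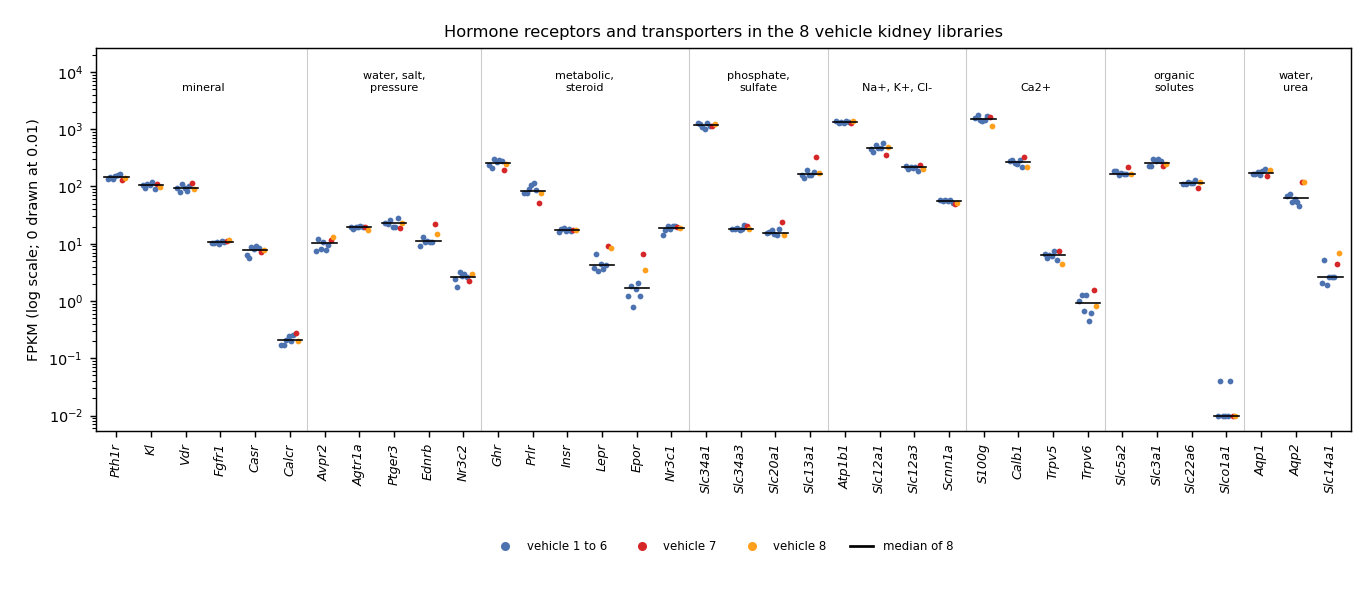
FPKM on a log axis for hormone receptors and transporters in the 8 vehicle libraries, 1 point per library, with the median as a black bar and values of 0 drawn at 0.01. Pth1r, Kl and Vdr lie near 100 FPKM with little spread, whereas Lepr, Epor, Slc13a1 and Aqp2 have vehicle 7 or vehicle 7 and 8 above the rest.

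Of the 17 clock genes 16 had a mean of at least 1 FPKM, and their median SD on the log2 scale was 0.22, beside 0.16 for all genes at that level. Nr1d1 (REV-ERB alpha), a repressor that peaks in the light phase in mouse tissues, was 46.0 to 58.9 FPKM and the clock-output factor Dbp 46.6 to 78.7, while Arntl (BMAL1), which runs in antiphase, was 0.92 to 3.12. Some of the glucocorticoid-responsive genes varied more. Per1, which is both a clock gene and a glucocorticoid target, was highest in vehicle 1 at 41.0 FPKM and lowest in vehicle 5 at 13.5. The kinase Sgk1 had the same extremes, 88.4 and 26.9 FPKM, and its SD on the log2 scale fell from 0.52 to 0.33 without vehicle 5. Fkbp5, a co-chaperone of the glucocorticoid receptor, was also highest in vehicle 1 at 63.1 FPKM but lowest in vehicle 7 at 21.5. The 11 immediate early genes summed to 63.3 to 115 FPKM, and the 8 with a mean of at least 1 FPKM had a median SD of 0.42. The phosphatase gene Dusp1 had the highest mean of them (15.3 to 37.1 FPKM), whereas Egr1 was 1.42 to 4.36 and Fos 0.07 to 1.01. The tubular injury markers Havcr1 and Lcn2 reached at most 1.07 and 4.56 FPKM, whereas Spp1, osteopontin, which is also made by healthy tubules, was 1646 to 2279 FPKM.

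Spread between libraries depended on level. Over the 12872 genes at 1 FPKM or more the median SD of log2(FPKM + 0.1) was 0.16, 631 genes (4.90%) had an SD of at least 0.5 and 177 (1.38%) one of at least 1. The median SD was 0.33 for the 1298 genes at 1 to 2 FPKM, 0.13 for the 4769 at 10 to 50 and 0.11 for the 396 above 200. Of the 9469 genes with 1 known transcript length, 30.9% had an SD more than 2 times that of counting error alone at the estimated depth. Small RNA genes filled the top of the ranking. They made up 27 of the 30 genes with the largest SD, 87 of the top 150 and 88 of the 177 with an SD of at least 1, although only 103 small RNA genes reached 1 FPKM at all. Each of those 30 genes was listed at 0 in at least 1 library. With small RNA genes set aside, a choice made after the data were seen, 533 of 12769 genes had an SD of at least 0.5 and 89 one of at least 1. Vehicle 7 was the highest library in 189 of these 533, beside the 20.8% of all 12769.

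**Figure D3:**
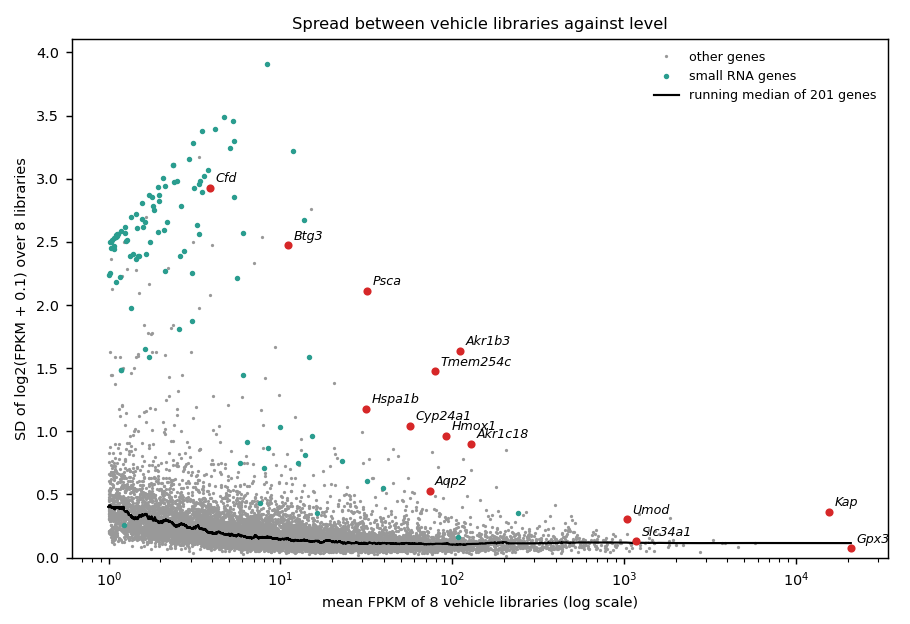
SD of log2(FPKM + 0.1) over the 8 vehicle libraries against mean FPKM (log axis) for the 12872 genes at 1 FPKM or more, with small RNA genes in green, named genes in red and a running median in black. The running median falls from near 0.4 at the lowest levels to about 0.1, Gpx3 and Slc34a1 lie close to it, and Psca, Akr1b3, Cyp24a1 and Hmox1 lie far above it.

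Some of the largest spreads belonged to near-identical gene copies, between which reads can be divided in more than 1 way. Tmem254c ranged from 6.88 FPKM in vehicle 1 to 135 in vehicle 4 (SD 1.48 on the log2 scale, 0.85 without vehicle 1), and Tmem254b moved the opposite way, from 172 in vehicle 1 to 28.1 in vehicle 4. The 3 Tmem254 copies summed to 136.9 to 185 FPKM with an SD of only 0.14. The pseudogene Oaz1-ps was listed at 0 in vehicle 4 and at 26.7 FPKM in vehicle 3 (SD 2.76, and 1.23 without vehicle 4), but its sum with Oaz1 had an SD of 0.10. For Ugt1a6a and Ugt1a6b, drug-conjugating enzymes, the sum still had an SD of 0.78, with 20.9 FPKM in vehicle 4 and 85.7 in vehicle 2. Btg3, an antiproliferative gene, was 10.2 to 16.7 FPKM in 7 libraries and listed at 0 in vehicle 8, so its SD of 2.47 came down to 0.22 without that library. These copies, and Btg3, were singled out after their values were seen.

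A group of 51 genes moved together across the vehicle libraries once small RNA genes were set aside. It was found by joining, among the 150 genes with the largest SD that are not small RNAs, those correlated at r of at least 0.7, and since the grouping used these values its tightness in vehicle is a description. The mean pairwise r was 0.85 within vehicle, 0.86 within the PTH libraries and 0.80 within the YKL-05-099 libraries, neither of which was used to form it, beside 0.14, 0.13 and 0.15 for all 150 genes. Vehicle 7 had the highest value for 39 of the 51 and vehicle 8 for 12, beside 20.8% and 15.1% of the 12769 genes. The lowest value was in vehicle 6 for 23 and in vehicle 3 for 19, beside 14.4% and 15.1%. The mean log2 level of the group relative to the vehicle mean was -0.68, 0.37, -1.10, 0.03, -0.51, -1.30, 1.78 and 1.41 in vehicle 1 to 8. Without vehicle 7 and 8 the mean r was 0.65 over the remaining 6 libraries. The group's level was as high in PTH 1 and PTH 5 (both 1.71 above the vehicle mean, on the log2 scale) and in YKL-05-099 2 (1.76), and lowest of the 24 libraries in YKL-05-099 6 (-1.68). High and low libraries thus occurred under each treatment, with the lowest PTH library at -1.37.

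The 51 genes included Psca and the uroplakins Upk1a, Upk3a and Upk3b, which are on the urothelial list. Also among them were the keratins Krt19 and Krt23, the laminin chain Lamb3 and the transcription factors Elf5 and Klf5, which are not on that list. Akr1b3, the aldose reductase that makes the osmolyte sorbitol in the renal medulla, was 30.7, 90.5, 19.1, 53.2, 43.9, 17.8, 315 and 321 FPKM in vehicle 1 to 8. Its SD of 1.64 on the log2 scale fell to 0.90 without vehicle 7 and 8. Aldh1a3, which makes retinoic acid, ranged from 0.17 FPKM in vehicle 3 to 28.4 in vehicle 7, and Sptssb, a subunit of the enzyme that starts sphingolipid synthesis, from a listed 0 in vehicle 6 to 14.4 in vehicle 7. Muc20, a transmembrane mucin, was 62.4 and 50.6 FPKM in vehicle 7 and 8 and 4.28 to 12.2 in the other 6. Nupr1, a stress-induced chromatin protein with the highest mean of the 51, ranged from 52.4 FPKM in vehicle 3 to 223 in vehicle 8. Epor and the hormone gene Cck (3.39 to 33.6 FPKM) were also members. Krt19, Krt23, Elf5, Klf5, Muc20, Cck and Nupr1 were singled out after their values were seen. The 7 urothelial markers of the fixed list summed to 4.23 to 115 FPKM and the principal cell markers to 268 to 399, and their part in the group's movement was not tested.

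**Figure D4:**
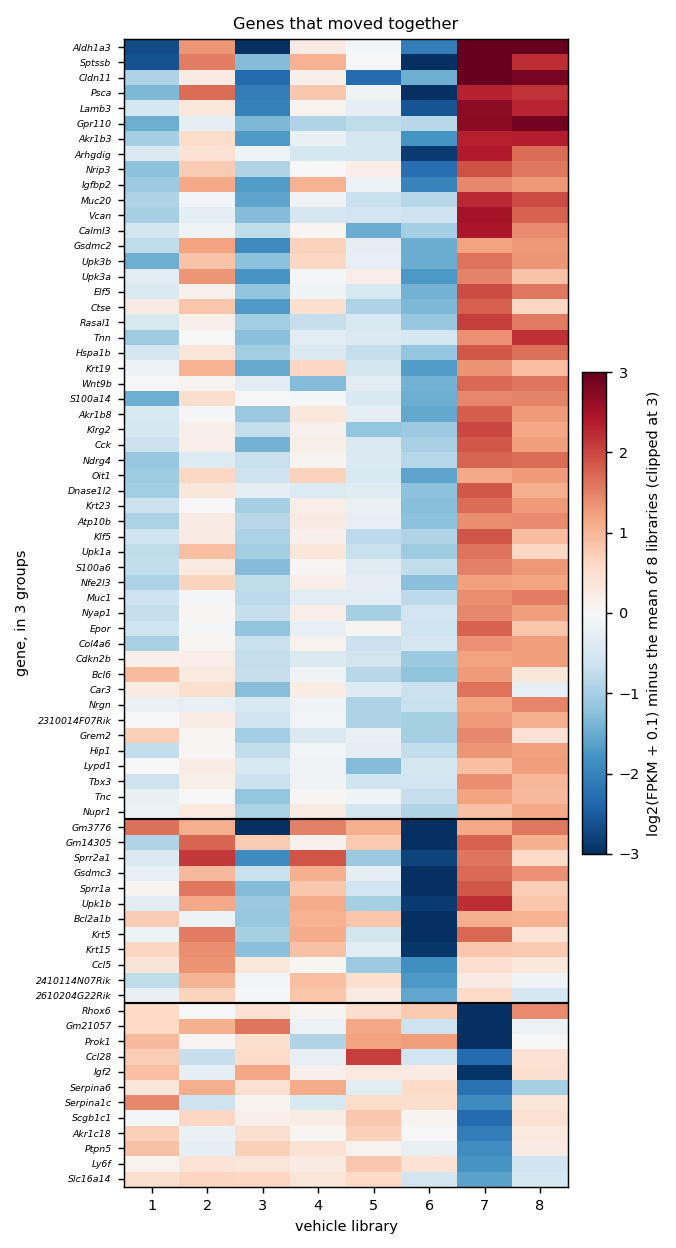
Log2(FPKM + 0.1) minus the mean of the 8 vehicle libraries, clipped at 3, for the genes of the 3 largest groups (51, 12 and 12 genes, separated by black lines) in vehicle 1 to 8. The 51 genes are high in vehicle 7 and 8 and low in vehicle 3 and 6, the next group is low in vehicle 6, and the last is low in vehicle 7.

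**Figure D5:**
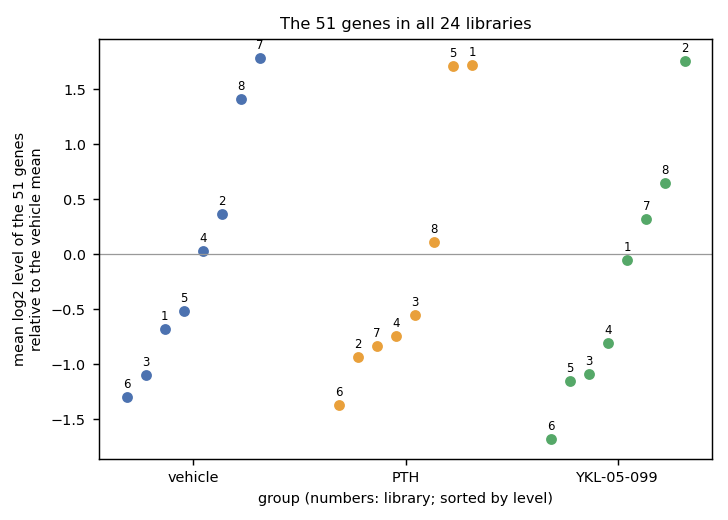
Mean log2 level of the 51 genes relative to the vehicle mean in the 24 libraries, 1 point per library labelled with its number and sorted within each group. Each treatment spans a similar range, with vehicle 7 and 8, PTH 1 and 5 and YKL-05-099 2 at the top.

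Heat shock genes of the cytosol followed the same libraries in part. Hspa1b, an inducible HSP70, belonged to the 51 and was 15.8, 29.3, 11.0, 17.0, 14.0, 10.2, 83.4 and 71.9 FPKM in vehicle 1 to 8. Its near-identical copy Hspa1a was 33.1 and 23.4 FPKM in vehicle 7 and 8 against 8.64 to 14.2, and the sum of both had an SD of 0.99 on the log2 scale. The small heat shock protein Hspb1 was 25.5 and 17.0 FPKM against 6.11 to 9.54, and the HSP110 protein Hsph1 88.7 and 88.8 against 38.4 to 54.6. Hsp90aa1, an inducible HSP90, was 232 and 214 FPKM against 165 to 200.8. Vehicle 7 and 8 were thus the highest pair for 5 of the 7 heat shock genes, beside 12.4% of the 12769 genes. Dnajb1, the co-chaperone of HSP70, showed no such split (11.5 to 14.7 FPKM, with vehicle 8 at its lowest value). The constitutive Hspa8 was 1817 to 2229 FPKM.

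The promoters of Hspa1a, Hspa1b, Hspb1 and Hsph1 are shown because each holds a match to a short form of the heat shock element, the motif that the factor HSF1 is known to read. The first 2 are near-identical copies of each other. The windows run from 250 bases before to 50 bases after the RefSeq transcript start on GRCm38.p6, and capitals mark each match of the letters GAANNTTC or TTCNNGAA, both of which read the same on either strand. Matches may overlap.
Hspa1a, chr17:34972107-34972406, minus strand: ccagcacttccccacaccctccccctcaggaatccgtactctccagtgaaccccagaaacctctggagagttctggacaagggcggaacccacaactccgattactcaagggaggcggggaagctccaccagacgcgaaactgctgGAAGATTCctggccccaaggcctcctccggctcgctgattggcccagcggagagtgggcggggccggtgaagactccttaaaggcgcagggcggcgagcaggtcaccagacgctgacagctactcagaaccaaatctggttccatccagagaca
Hspa1b, chr17:34959189-34959488, minus strand: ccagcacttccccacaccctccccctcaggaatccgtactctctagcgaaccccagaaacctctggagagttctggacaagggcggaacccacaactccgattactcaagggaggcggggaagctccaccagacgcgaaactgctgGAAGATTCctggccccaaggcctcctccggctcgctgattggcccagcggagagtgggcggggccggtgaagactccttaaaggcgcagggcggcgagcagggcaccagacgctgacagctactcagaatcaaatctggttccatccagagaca
Hspb1, chr5:135887669-135887968, plus strand: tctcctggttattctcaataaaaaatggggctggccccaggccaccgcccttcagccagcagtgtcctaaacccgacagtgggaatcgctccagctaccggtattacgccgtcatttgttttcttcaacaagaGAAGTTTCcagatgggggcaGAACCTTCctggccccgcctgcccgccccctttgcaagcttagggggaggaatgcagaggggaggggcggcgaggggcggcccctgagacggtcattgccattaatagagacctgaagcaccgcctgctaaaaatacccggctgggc
Hsph1, chr5:149636287-149636586, minus strand: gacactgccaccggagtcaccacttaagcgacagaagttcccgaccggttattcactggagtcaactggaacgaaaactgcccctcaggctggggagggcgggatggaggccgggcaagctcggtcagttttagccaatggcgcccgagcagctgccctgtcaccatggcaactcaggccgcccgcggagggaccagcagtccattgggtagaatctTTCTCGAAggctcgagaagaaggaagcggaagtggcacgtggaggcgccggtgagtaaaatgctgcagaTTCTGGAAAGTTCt
Of the 5 heat shock genes with a window, these 4 held a match and Dnajb1 held none in either of its 2 windows. Among all 32851 windows 15.1% held a match, and among the 10180 genes with a window and a mean of at least 1 FPKM 14.3% did. Of the 51 genes, 33 had a window and 6 of those held a match. A match is a description of these letters and not a binding site.

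The remaining groups were smaller. A group of 12 genes was low in vehicle 6, at -3.07 on the log2 scale relative to the mean of the vehicle libraries. It held Krt5 and Krt15, keratins of basal epithelial cells, the cornified-envelope gene Sprr1a and the uroplakin Upk1b. With small RNA genes kept among the 150, these 4 genes fell in 1 group of 27 with Psca, Upk3a and Akr1b3, so their separation from the 51 depended on setting small RNA genes aside. Krt5 was 0.07 FPKM in vehicle 6 and 0.65 to 4.84 elsewhere, and its SD on the log2 scale fell from 1.6 to 1.06 without that library. The mean r of these 12 genes was 0.81 in vehicle, at lowest 0.52 when 1 library was left out and 0.83 without vehicle 7 and 8, but 0.06 in PTH and 0.18 in YKL-05-099. Another group of 12 was low in vehicle 7 (-2.46), with a mean r of 0.78 in vehicle, 0.14 without vehicle 7, 0.10 in PTH and 0.05 in YKL-05-099. Its most abundant member was Akr1c18, the enzyme that inactivates progesterone, at 187, 99.3, 158, 118, 186, 115, 26.8 and 139.9 FPKM in vehicle 1 to 8. Igf2, an insulin-like growth factor, was 0.53 FPKM in vehicle 7 and 3.91 to 10.8 in the rest, and without vehicle 7 the SDs fell from 0.90 to 0.36 for Akr1c18 and from 1.27 to 0.48 for Igf2. A further 2 groups of 5 genes were low in vehicle 5 and in vehicle 1, and their mean r fell to 0.03 and 0.04 at lowest when 1 library was left out.

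Vehicle 7 differed from the other libraries beyond these groups. Among genes at 1 FPKM or more that are not small RNAs, 16 lay in it at least 1 log2 unit above the next library and 28 at least 1 log2 unit below, against 0 to 2 above and 1 to 17 below in the other 7. Hmox1, heme oxygenase 1, was 238 FPKM in vehicle 7 and 27.0 to 115 elsewhere. Rarres2, which encodes the adipokine chemerin, was 149 FPKM against 24.8 to 41.3. The bile acid transporter subunit Slc51a was 87.5 FPKM against 21.3 to 30.2. Lower in vehicle 7 were Dio1, which activates thyroid hormone (25.3 FPKM against 54.9 to 82.9), the lysophospholipid carrier Mfsd2a (3.67 against 11.0 to 19.6) and Cish and Socs2, feedback inhibitors of cytokine and growth hormone signals. Cish was 2.97 FPKM against 6.94 to 12.3 and Socs2 4.65 against 9.20 to 16.8. Without vehicle 7 the SD on the log2 scale fell from 0.97 to 0.75 for Hmox1, from 0.80 to 0.28 for Rarres2, from 0.63 to 0.18 for Slc51a, from 0.51 to 0.22 for Dio1, from 0.73 to 0.33 for Mfsd2a, from 0.60 to 0.26 for Cish and from 0.58 to 0.34 for Socs2. The summed level of the 7 fat markers was 120 to 439 FPKM with its highest value in the same library. Most of that sum was Fabp4 (119.8 to 399 FPKM), a gene also of capillary endothelium. The part of fat in these differences was not tested. Rarres2, Slc51a, Dio1, Mfsd2a, Cish and Socs2 were singled out after their values were seen.

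Pairs of genes with a known relation were compared across the 8 vehicle libraries, 10 pairs in all, by two-sided exact permutation tests with Benjamini-Hochberg adjustment. Umod and Slc12a1, both of the thick ascending limb, correlated at r = 0.84 (exact permutation p = 0.0069, adjusted p = 0.034; rho = 0.83, p = 0.015, adjusted p = 0.077). Without the 2 libraries farthest from the median of Umod, vehicle 2 and 7, r was 0.53, so the relation rested in part on them. The uroplakins Upk1b and Upk3a gave r = 0.86 (exact permutation p = 0.0058, adjusted p = 0.034; rho = 0.86, p = 0.011, adjusted p = 0.077) and 0.72 without vehicle 6 and 7. The fat genes Adipoq and Plin1 gave r = 0.88 (exact permutation p = 0.042, adjusted p = 0.14; rho = 0.56, p = 0.15, adjusted p = 0.22), and -0.31 without vehicle 7 and 2, so that relation rested on those libraries. Cyp27b1 and Cyp24a1 gave r = -0.43 (exact permutation p = 0.28, adjusted p = 0.39; rho = -0.43, p = 0.30, adjusted p = 0.37) and 0.12 without vehicle 1 and 2, and no relation between the vitamin D enzymes was detectable with these 8 libraries. None of the other 6 pairs passed at an adjusted p of 0.05. By r alone 2 of the 10 pairs passed, and by rho 0 did. With any 1 of vehicle 1, 2, 3, 6, 7 or 8 left out 0 pairs passed, and the adjusted exact permutation p of both called pairs reached 0.246.

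The spread of vehicle libraries was then compared with that of treated libraries, gene by gene, by a limma test of the absolute deviation of each log2 value from its group's median. Against PTH, 2 of 12839 genes (0.0156%) passed a Benjamini-Hochberg adjusted p of 0.05, both narrower in vehicle, and 0 (0%) were wider in vehicle. They were Rpl24, a protein of the large ribosomal subunit (chr16:55966275-55971437), and Mrpl52, a protein of the mitochondrial ribosome (chr14:54426909-54429750). Rpl24 was 739 to 824 FPKM in vehicle and 738 to 819 in PTH 1 to 4, but 464 to 514 in PTH 5 to 8, and 485 to 609 in the YKL-05-099 libraries. Mrpl52 was 120.0 to 139 FPKM in vehicle and 128 to 134 in PTH 1 to 4, but 70.1 to 84.5 in PTH 5 to 8, and 86.0 to 108 in the YKL-05-099 libraries. The PTH libraries thus fell into separate sets for both genes, and the vehicle libraries did not. The mean absolute deviation was lower in vehicle, -0.30 ± 0.06 (SE) for Rpl24 and -0.33 ± 0.06 for Mrpl52 on the log2 scale (limma adjusted p = 0.030 for both, 0.0020 to 0.18 over the alternatives). Each of the fits that left out 1 vehicle library called 0 genes at an adjusted p of 0.05, with 1509 to 1645 at an unadjusted limma p under 0.05.

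Against YKL-05-099, 1 of 12839 genes (0.00779%) passed, again narrower in vehicle. It was Snord72, a small nucleolar RNA whose value was 0 throughout vehicle (limma adjusted p = 0.029, 1.9e-05 to 0.48 over the alternatives). Snord72 stood at 5.99, 5.98, 6.29 and 6.81 FPKM in YKL-05-099 2, 4, 6 and 8, with 0 in the other 4. Estimated depth there was 7130000, 7140000, 6780000 and 6260000 fragments. The level was thus higher where depth was lower, as it is for a fixed number of fragments. Such levels of a short RNA can rest on very few fragments, and the part of counting error in this call was not tested. Each fit without 1 vehicle library called 0 genes here too, with 258 to 308 at an unadjusted limma p under 0.05. The direction over all genes is a description with no test. The SD was smaller in vehicle than in PTH for 78.1% of the 12839 genes and than in YKL-05-099 for 61.8%, and the median SD on the log2 scale was 0.16 in vehicle, 0.24 in PTH and 0.18 in YKL-05-099. At an unadjusted limma p under 0.05 there were 1720 genes against PTH, of which 1668 were narrower in vehicle, and 317 against YKL-05-099, of which 252 were narrower. The 100 genes with the largest SD in vehicle that are not small RNAs were compared with the 100 of each treatment. Of them, 66 were among the 100 of PTH and 66 among the 100 of YKL-05-099. Any 100 make up 0.783% of such genes at 1 FPKM or more. Because SD was larger at low levels, genes of low level can rank high in each group. The part of level in this overlap was not tested.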

How the data were processed

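RNA of whole mouse kidney was extracted with Trizol and sequenced on a BGISEQ500. Per the labels and the submitters' processing notes, reads were aligned to mm10 (GRCm38) with STAR 2.7.2b and quantified with RSEM 1.3.0, and DESeq2 is also named there, with no version. The deposited table holds FPKM per gene and library as the authors computed it, so each value is relative to its own library's total. Strand setting, annotation release and filters: not given in the sources used here. Of 19426 genes, 99.7% matched RefSeq GRCm38.p6, which gave coordinates and promoters. Transcript lengths were taken from GENCODE transcripts linked to RefSeq identifiers. The RefSeq symbol replaced 25 symbols that looked like dates or numbers or were shared between identifiers. A further 1 column of per-sample values was not used.

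From the deposited FPKM, log2(FPKM + 0.1) was computed, and spread was taken as its SD over the 8 vehicle libraries for genes whose mean reached 1 FPKM. Depth was estimated from the step between low values of genes with a single transcript. The 150 genes with the largest SD were joined into groups of at least 5 at r of at least 0.7 by average linkage. Pairs were tested by exact permutation over the 40320 pairings, and spread between treatments by limma 3.58.1 in R 4.3.3 on absolute deviations from the group median in all 24 libraries. The rest was computed in Python 3.11.15 with scipy 1.17.1, numpy 2.4.6, pandas 2.3.3 and matplotlib 3.10.9. The scripts were tested on simulated data.

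Genes were named by rule: the 20 most abundant, the members of the gene lists, the 30 with the largest SD and the 10 with the largest SD for their level, up to 10 per group, called genes and the genes of the pairs. Exceptions are stated, and some genes that the rule covers are not reported here. The members and lists were chosen with earlier results of these data known. Of the 52 gene lists, 3 (osmolyte, brown fat and peroxisome proliferator genes) were added after the vehicle values were seen, and 12 list members were not matched in the table. Alternatives were a pseudocount of 1 FPKM, median-ratio scaling, a minimum mean of 5 FPKM or none, joining at r of at least 0.8, deviations from the group mean, the replicate number as a block and each vehicle library left out. Leaving out small RNA genes, or vehicle 7 and 8, was added after the data were examined.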

Additional observations from a re-analysis of the deposited data

Results flagged for a closer look

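Of the genes named in the report, 143 were examined for a vehicle library that stood far from the other 7, by Dixon's ratio of the gap to the range of the 8 samples. Genes first named under other observations were not among them. Chance alone gives about 1 such gene in 20, and 17 were found, of which 14 were high and 1 low in vehicle 7. Some of these genes were named because they stood apart in that library or varied most, so the number found cannot be read against that rate.

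The fat genes stood apart there. Adipoq was 5.39 FPKM in vehicle 7 with 0.50 the next highest, Plin1, the coat protein of fat droplets, 0.89 with 0.08 next, Cfd 25 with 4.85 next, Ucp1 4.86 with 0.28 next and Fabp4 399 with 207 next. Genes of metabolism and transport followed. Rarres2 was 149 FPKM with 41.3 next, Slc51a 87.5 with 30.2 next, Slc13a1 321 with 195 next and the phosphate carrier Slc20a1 23.7 with 18.0 next. Hmox1 was 238 FPKM with 115 next and Cyp24a1 172 with 77.4 next. Of the genes high in both vehicle 7 and 8 or in urothelium, Epor was 6.73 FPKM with 3.5 next, Klf5 5.35 with 2.72 next and Upk1b 8.95 with 4.21 next. Myh1 was low in vehicle 7, at 0.62 FPKM with 1.63 the next lowest.

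A different library was involved for the other 2 genes. Fos was 1.01 FPKM in vehicle 1 with 0.46 next, both low levels, and Btg3 was listed at 0 in vehicle 8 with 10.2 the next lowest.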

How the results depend on the processing

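The number of variable genes depended on how low genes were treated. Genes with an SD of at least 1 numbered 177, and 96 with a pseudocount of 1 FPKM, 29 at a mean of at least 5 FPKM, 721 with no filter on level and 89 without small RNA genes. Genes with an SD of at least 0.5 numbered 631, and 307, 131 and 3549 under the first 3 of these. With 1 vehicle library left out the counts were 147 to 187 and 532 to 672, and 12847 to 12902 genes reached a mean of 1 FPKM. Genes in groups numbered 43 over all genes, 82 at a mean of at least 5 FPKM, 23 with no filter, 85 without small RNA genes, 98 without vehicle 7 and 8, and 54 to 78 with 1 library left out. Pairs past the threshold numbered 2, and 0 to 3 with 1 library left out.

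Genes that differed in spread from PTH numbered 2, and 4 with median-ratio scaling, 23 at a mean of at least 5 FPKM, 110 with no filter (9 wider in vehicle), 355 with deviations from the group mean (4 wider), 0 without vehicle 7 and 8 and 0 to 0 with 1 vehicle library left out. Against YKL-05-099 the number was 1, and 0 at a mean of at least 5 FPKM, 5 with no filter (4 wider in vehicle), 3 with deviations from the group mean, 0 without small RNA genes, 0 without vehicle 7 and 8 and 0 to 0 with 1 library left out. The replicate numbers share no stated source and did not pair the samples (correlations of same-numbered deviations from -0.26 to 0.27), and with the number as a block 0 genes were called against PTH and 0 against YKL-05-099, with 1630 and 310 at an unadjusted limma p under 0.05. The cause of these changes was not tested, beyond the number of genes or samples that each setting leaves.

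Of the same 143 genes, the SD moved by more than 1.5 times for 22 without vehicle 7, 42 without vehicle 7 and 8, 23 with a pseudocount of 1 FPKM and 0 with median-ratio scaling. Levels of a few FPKM rest on few fragments at this depth, and an exact 0 may be a failed estimate.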

Other observations

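Several gene groups outside the comparisons had vehicle 7 at their edge. The peroxisome proliferator and ketone list, which was added after the values were seen, held 11 genes, of which 10 had a mean of at least 1 FPKM. Of those 10, 8 were highest in vehicle 7, beside 20.8% of the genes at 1 FPKM or more that are not small RNAs. They included Pdk4, which switches mitochondria from glucose to fat, at 86.5 FPKM (lowest 32.6), and Angptl4, an inhibitor of lipoprotein lipase, at 119 (lowest 54.6). Acadm, the medium-chain acyl-CoA dehydrogenase, was lowest there at 505 FPKM, with a highest value of 800.4. In the brown fat list, also added, Cidea was 10.1 FPKM in vehicle 7, while the respiratory chain gene Cox7a1 ranged from 20.7 to 37.6 and was highest in vehicle 2.

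Of the 8 osmolyte and hypertonicity genes, likewise added after the values were seen, 5 had vehicle 7 and 8 as the highest pair, beside 12.4% of the 12769 genes. The 5 included Akr1b3, the transcription factor Nfat5 (24.6 and 22.4 FPKM against 14.6 to 20.2) and the betaine carrier Slc6a12 (1.79 and 2.37 against 0.47 to 1.17). The inositol carrier Slc5a3 did not follow them and was lowest in vehicle 7 at 24.7 FPKM. Interferon genes were present at modest levels, with Ifit3 at 21.7 to 43.4 FPKM and Isg15 at 7.46 to 10.7. The metallothionein Mt1 was highest in vehicle 1 at 219 FPKM and lowest in vehicle 8 at 97.8.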
